A study of Homo sapiens with 12 samples.

Results

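The response of 10 genes that restrain ERK signaling was followed in OVCAR8 cells given EC359, trametinib or both. They are the Sprouty genes SPRY1, SPRY2 and SPRY4, the Sprouty-related genes SPRED1, SPRED2 and SPRED3, and the dual-specificity phosphatase genes DUSP4, DUSP5, DUSP6 and DUSP7. The genes were taken by name, with earlier results of these data known, and are 10 of the 26485 genes in the annotation. All 10 passed the filter on low counts, which left 14865 genes to be tested.

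OVCAR8 is an established human ovarian cancer cell line that the study lists among its Ras-mutant models. The cells were grown in RPMI medium with serum and treated for 7 h with vehicle (Control), 150 nM EC359 (EC359), 100 nM trametinib (Trametinib) or both agents at these doses (Combination). EC359 is a small-molecule inhibitor of the cytokine receptor LIFR, and trametinib is an allosteric inhibitor of the kinases MEK1 and MEK2. Polyadenylated RNA was sequenced in 3 libraries for each of the 4 conditions, 12 in all. A single cell line was sequenced at a single time and dose. No label says whether the libraries of a condition came from separate cultures, so p-values measure the spread between these libraries, which may be technical. Library totals ran from 24790165 to 32467018 reads on genes, and libraries of the same condition correlated across genes with Pearson's r of about 0.996. Of 9 epithelial and ovarian carcinoma markers, 6 were above 1 CPM (read counts scaled to a common library size) in every condition, and KRT7, KRT8 and KRT18 were at 976, 1930 and 1047 CPM in control. KRT19 and MUC16 had no count in control, and CDH1 was at 0.149 ± 0.0756 CPM (SD, n = 3). The 4 leukocyte and 3 endothelial markers were each under 1 CPM. Of 4 fibroblast markers only COL1A1 was above 1 CPM and DCN had no count. Their summed level ran from 415 to 436 CPM in control, 220 to 232 with EC359, 514 to 526 under trametinib and 314 to 336 in the combination, and any part of this in the results was not tested.

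Growth signals pass through Ras, RAF, MEK and ERK, and active ERK drives the transcription of genes whose products act back on the same cascade. Sprouty proteins act between receptor tyrosine kinases and RAF, and SPRED proteins bring the Ras GTPase-activating protein neurofibromin to the membrane. Dual-specificity phosphatases remove phosphate from ERK itself, in the nucleus (DUSP4 and DUSP5) or in the cytoplasm (DUSP6 and DUSP7). Their transcripts are widely read as a measure of ERK output, since they fall within hours when MEK is inhibited.

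The 250 bases before the start of the RefSeq gene (GRCh38.p14) were available for 8 of the 10 genes. These windows overlap exons of the annotation used for counting in SPRY4 and DUSP6, and exons of GENCODE in SPRED1, SPRED2 and SPRED3, so that those 5 windows may lie within a transcript. Shown are the windows of SPRY2, which changed at least 2-fold with each single agent, and DUSP7, which changed least with trametinib. They were picked by these responses, and a link between letters and response was not tested. The window of SPRY1, which also overlaps no exon, is not shown. SPRY2 is read from the minus strand of chr13:80341127-80341376 and DUSP7 from the minus strand of chr3:52056572-52056821, both 5′ to 3′, with matches to an ETS core in capitals.
SPRY2: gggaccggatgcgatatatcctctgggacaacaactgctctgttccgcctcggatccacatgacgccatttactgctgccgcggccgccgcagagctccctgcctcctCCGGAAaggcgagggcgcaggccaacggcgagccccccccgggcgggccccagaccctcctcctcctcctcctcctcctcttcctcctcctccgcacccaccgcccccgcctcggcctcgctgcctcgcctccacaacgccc
DUSP7: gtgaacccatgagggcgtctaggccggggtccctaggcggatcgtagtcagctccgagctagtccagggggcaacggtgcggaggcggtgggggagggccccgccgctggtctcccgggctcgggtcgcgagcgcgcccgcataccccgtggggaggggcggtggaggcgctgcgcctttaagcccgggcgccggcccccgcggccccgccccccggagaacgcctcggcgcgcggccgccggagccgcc
Both strands were searched for an ETS core (CCGGAA), an AP-1 site (TGANTCA), a cyclic AMP response element (TGACGTCA), a GC box (GGGCGG) and the CArG box by its name. SPRY2 held 1 ETS core, 142 bases before the start, and 2 GC boxes. DUSP7 held 2 GC boxes and no CCGGAA. Other forms of the ETS core were not searched for. Among the other 6 windows, that of SPRED3 held 1 AP-1 site, those of SPRY4 and SPRED1 each held 1 GC box, and those of SPRY1, SPRED2 and DUSP6 held no match. Of 27305 promoter windows of this length, 14.8% held the ETS core, 6.6% the AP-1 site, 1.77% the cyclic AMP response element, 42.3% the GC box and 1.14% the CArG box. A match is a run of letters and not a measured binding site, and nothing is drawn from the windows that hold none.

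**Figure D1:**
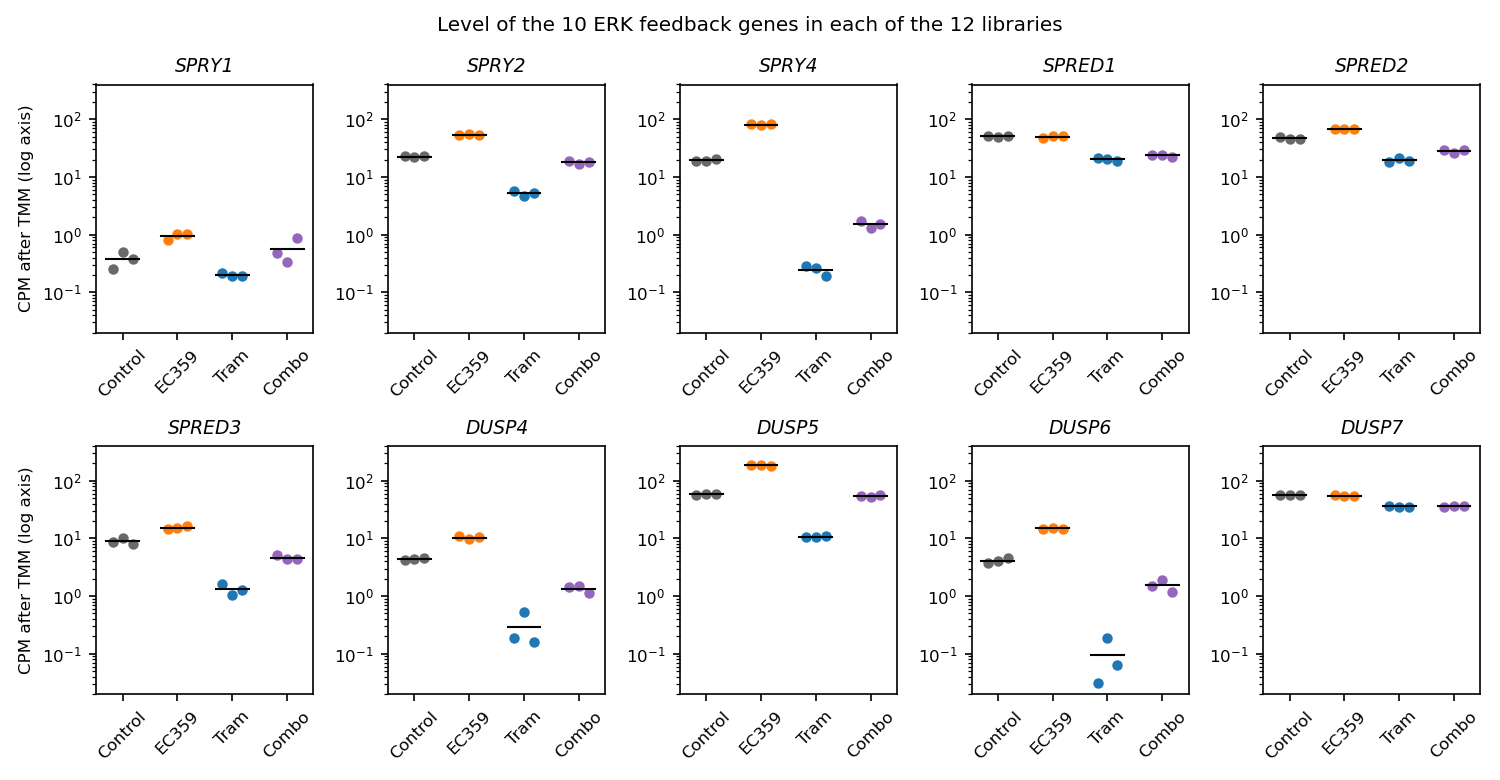
Level of each of the 10 genes in each of the 12 libraries, in CPM after TMM normalization on a log axis, with 1 point per library and a black line at the mean of the 3 libraries of a condition (Tram, trametinib; Combo, combination). SPRY4 spans the widest range, from a mean of 0.247 CPM with trametinib to 81.0 with EC359, whereas all DUSP7 libraries lie between 35.1 and 57.5.

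Across all 10 genes, EC359 raised most of them and trametinib lowered nearly all. By point estimate, the fold change of the combination lay between those of the single agents. At an adjusted p under 0.05, however, DUSP7 did not differ between the combination and trametinib, nor SPRY1 between the combination and EC359. With scaling to library totals, DUSP7 was lower in the combination than with trametinib, at -0.15. With a change of at least 2-fold and an adjusted p under 0.05 by edgeR's quasi-likelihood F test after Benjamini-Hochberg correction, EC359 raised 6 of the 10 genes compared to control and lowered none, while 4.19% of all genes tested were raised and 2.79% lowered. Trametinib lowered 8 and raised none, while 0.955% of all genes were lowered and 0.478% raised. The combination lowered 4 compared to control (5.87% of all genes). The 3 comparisons use the same control libraries and are not independent of each other. Summed over each family, the Sprouty transcripts went from 42.5 ± 0.734 CPM in control to 136 ± 0.776 with EC359, then 5.66 ± 0.576 under trametinib and 19.9 ± 1.53 in the combination (SD, n = 3). The SPRED sum was 106 ± 1.39, 132 ± 2.20, 41.0 ± 1.22 and 56.3 ± 1.73 CPM in the same order. The 4 DUSP genes summed to 123 ± 3.11, 266 ± 3.62, 46.9 ± 0.691 and 93.5 ± 0.931 CPM. In each family sum the 4 conditions did not overlap, but the sums are weighted to abundant members. SPRED1 and DUSP7 overlapped between EC359 and control, DUSP7 between the combination and trametinib, and SPRY1 between the combination and both control and EC359. In the DUSP sum, DUSP7 averaged 56.8 CPM in control and 36.1 in the combination, and DUSP5 57.9 and 54.5. Lack of overlap with control was also common over all genes tested, at 64.7% for EC359, 40.1% for trametinib and 71.8% for the combination. These are bulk RNA samples, in which fewer cells with a transcript and less of it per cell cannot be told apart.

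Per kilobase of exon, the scale on which genes can be compared, DUSP5 stood highest in control at 22.9 ± 0.606 CPM per kilobase, followed by DUSP7 at 17.6 ± 0.338, SPRY2 at 10.7 ± 0.173 and SPRED2 at 10.1 ± 0.272 (SD, n = 3 each). SPRED1, SPRY4, SPRED3, DUSP6 and DUSP4 followed at 6.93, 3.53, 1.72, 1.20 and 0.597 CPM per kilobase, and SPRY1 was last at 0.125. With EC359 the order became DUSP5 at 73.5 ± 1.0, SPRY2 at 25.5 ± 0.753 and DUSP7 at 16.9 ± 0.347, and SPRY4 at 14.6 ± 0.204 did not differ from SPRED2 at 14.5 ± 0.157 beyond their spread. With trametinib DUSP7 led at 11.1 ± 0.304 CPM per kilobase, and DUSP5 at 4.24 ± 0.0765 and SPRED2 at 4.17 ± 0.319 lay within their spread of each other. DUSP6 had the lowest mean with trametinib, at 0.0281 ± 0.0246 CPM per kilobase. It lay within the spread of DUSP4 at 0.0400 ± 0.0281 and SPRY4 at 0.0447 ± 0.0083, so these are not ranked.

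Of the Sprouty genes, SPRY4, on chromosome 5 from 142310427 to 142325055 (hg38, minus strand, 4 exons), covered the widest range. It stood at 19.2, 19.1 and 20.3 CPM in the control libraries and at 81.6, 79.7 and 81.7 with EC359. With trametinib it fell to 0.281, 0.266 and 0.195 CPM, from 9, 7 and 6 reads, and with the combination it was at 1.72, 1.30 and 1.5. No pair of conditions overlapped, and the combination stayed well under every control library. Its log2 fold change was 2.05 (standard error 0.053) with EC359, -6.28 (0.31) under trametinib and -3.70 (0.14) with the combination, with adjusted p-values of 8.7e-39, 3.5e-43 and 2.4e-39 by edgeR's quasi-likelihood F test after Benjamini-Hochberg correction. The trametinib change was by estimate the largest decrease among the 14865 genes tested, though its interval overlapped that of DUSP6. On summed counts it was a 79.4-fold decrease, with a 95% interval of 52.3 to 127 that covers counting error only. Compared to EC359 alone, SPRY4 was again the gene with the largest decrease in the combination, at a log2 fold change of -5.75 (0.14), and 7.71% of its control level was left.

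SPRY2, on chromosome 13 from 80335977 to 80340951 (minus strand, 2 exons), is a Sprouty protein induced by many growth factors. It was at 22.9, 22.2 and 22.6 CPM in control, 52.5, 55.6 and 53.5 with EC359, 5.74, 4.63 and 5.25 under trametinib, and 18.8, 16.5 and 18.2 with the combination. The 4 conditions again did not overlap, but here the combination came back close to control. The log2 fold changes against control were 1.26 (standard error 0.055) with EC359, -2.11 (0.079) under trametinib and -0.34 (0.061) with the combination, which left 79.0% of the control level and had an adjusted p of 2.1e-06 by edgeR's quasi-likelihood F test after Benjamini-Hochberg correction.

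SPRY1, on chromosome 4 from 123396795 to 123403760, was barely expressed. Its counts were 7, 16 and 13 in control, 19, 30 and 26 with EC359, 7, 5 and 6 under trametinib, and 12, 9 and 23 with the combination. EC359 lay above control in every library, and the combination overlapped control. Its log2 fold change was 1.30 (standard error 0.37) with EC359, with an adjusted p of 0.0018 by edgeR's quasi-likelihood F test after Benjamini-Hochberg correction. With trametinib the value was -0.91 (0.48) and did not pass (adjusted p = 0.14 by the same edgeR test). The 95% interval of that value, -1.87 to 0.04, includes the trametinib values of SPRED1 and SPRED2.

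All 3 SPRED genes fell at least 2-fold with trametinib, and none rose 2-fold with EC359. SPRED1, on chromosome 15 from 38252851 to 38357249, was at 50.7, 49.2 and 50.9 CPM in control and 47.1, 51.2 and 50.6 with EC359, which overlapped. Trametinib brought it to 21.6, 20.0 and 19.2 CPM and the combination to 24.3, 24.3 and 22.4, both below every control library. Its log2 fold changes against control were -0.02 (standard error 0.046, 95% interval -0.11 to 0.08) with EC359, -1.31 (0.051) under trametinib and -1.09 (0.051) with the combination.

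SPRED2, on chromosome 2 from 65310851 to 65432522, is the family member with the most transcript per kilobase in these cells. It was at 48.3, 46.3 and 45.9 CPM in control, 67.9, 67.6 and 66.5 with EC359, 18.1, 21.0 and 19.2 under trametinib, and 28.9, 26.4 and 28.8 with the combination. None of the 4 conditions overlapped. The rise with EC359 passed the adjusted p but not the 2-fold limit, at a log2 fold change of 0.52 (standard error 0.044), against -1.27 (0.051) under trametinib and -0.74 (0.049) with the combination. SPRED3, on chromosome 19 from 38390200 to 38399883, stood much lower, at 8.60, 10.1 and 8.03 CPM in control and 14.8, 15.1 and 16.1 with EC359. With trametinib it was at 1.59, 1.03 and 1.30 CPM and with the combination at 5.11, 4.32 and 4.43, so that all 4 conditions were apart. Its log2 fold change of -2.75 (0.15) with trametinib was the largest decrease among the 3 SPRED genes, while EC359 gave 0.78 (0.11) and the combination -0.95 (0.12).

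The nuclear phosphatases DUSP5 and DUSP4 both rose with EC359 and fell with trametinib. DUSP5, which acts on ERK alone, lies on chromosome 10 from 110497867 to 110511544 and had the highest level of the 10 genes in control. It was at 56.2, 58.3 and 59.1 CPM in control, 188, 186 and 183 with EC359, 10.5, 10.7 and 10.9 under trametinib, and 55, 53.0 and 55.5 with the combination. The combination libraries lay just below the control libraries without overlap, at 94.0% of the control level. The log2 fold changes were 1.68 (standard error 0.033) with EC359, -2.43 (0.053) under trametinib and -0.09 (0.037) with the combination. The last passed with an adjusted p of 0.029 by edgeR's quasi-likelihood F test after Benjamini-Hochberg correction, but not with DESeq2 (adjusted p = 0.06) nor without control library 2, control library 3 or combination library 2, where the values were -0.08, -0.07 and -0.07.

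DUSP4, which dephosphorylates ERK, JNK and p38, lies on chromosome 8 from 29333062 to 29350750. It was at 4.25, 4.34 and 4.56 CPM in control, 10.9, 9.67 and 10.5 with EC359, 0.187, 0.532 and 0.162 with trametinib (6, 14 and 5 reads), and 1.44, 1.49 and 1.13 with the combination. The conditions did not overlap, and trametinib library 2 stood above the other two of its group. The log2 fold changes against control were 1.24 (standard error 0.15) with EC359, -3.94 (0.31) under trametinib and -1.70 (0.18) with the combination. Without trametinib library 2 the trametinib value was -4.61.

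The cytoplasmic phosphatases DUSP6 and DUSP7 are close relatives that act on ERK. DUSP6, on chromosome 12 from 89347825 to 89352859 (minus strand, 3 exons), was at 3.75, 3.99 and 4.50 CPM in control and 14.6, 15.1 and 14.9 with EC359. With trametinib 1, 5 and 2 reads were counted, or 0.0312, 0.190 and 0.0649 CPM, and with the combination 38, 52 and 31 reads, or 1.52, 1.94 and 1.16 CPM. Every trametinib library lay under every combination library, and every combination library under every control library. Its log2 fold change with EC359 was 1.86 (standard error 0.14) and with the combination -1.41 (0.17).
With trametinib, the DUSP6 value of -5.44 (0.52) was second only to SPRY4 among all genes tested, with an adjusted p of 4.5e-24 by edgeR's quasi-likelihood F test after Benjamini-Hochberg correction. On summed counts this was a 45.8-fold decrease with a 95% counting interval of 23.0 to 107, and without trametinib library 2 the log2 fold change was -6.30. The size of the decrease is therefore known less well than its direction. Its order against SPRY4 is not settled, since the 95% intervals overlap, at -6.48 to -4.40 for DUSP6 and -6.91 to -5.66 for SPRY4.

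DUSP7, on chromosome 3 from 52048921 to 52056445, was at 55.5, 57.2 and 57.5 CPM in control and 56.1, 54.2 and 54.0 with EC359, which overlapped. Trametinib lowered it to 37.0, 35.3 and 35.2 CPM and the combination to 35.1, 36.4 and 36.7, and these overlapped each other. The log2 fold changes against control were -0.05 (standard error 0.040, 95% interval -0.13 to 0.03) with EC359, -0.66 (0.042) under trametinib and -0.65 (0.043) with the combination. DUSP7 thus passed the adjusted p but not the 2-fold limit in both conditions with trametinib.

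**Figure D2:**
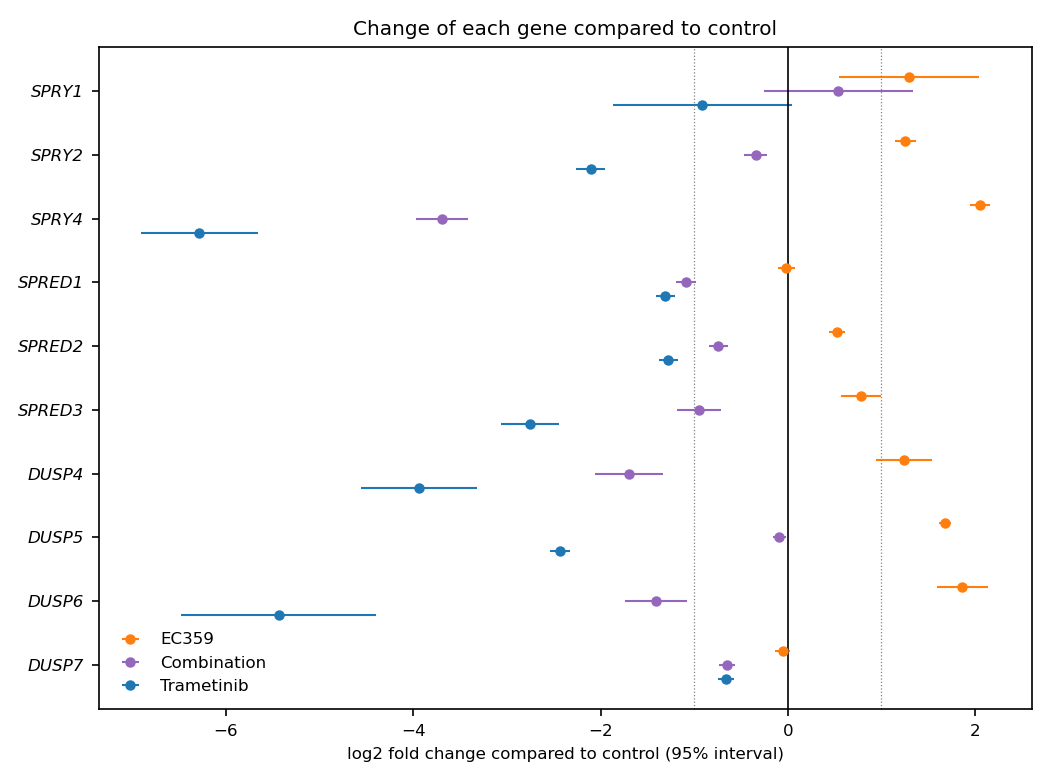
Log2 fold change of each gene compared to control for EC359, trametinib and the combination, with 95% intervals from edgeR's fit and dotted lines at 2-fold. The trametinib points lie left of 0 for all 10 genes, from -6.28 for SPRY4 to -0.66 for DUSP7. The combination points lie between those of the single agents, with DUSP7 at almost the trametinib value. At an adjusted p under 0.05, DUSP7 did not differ between the combination and trametinib, nor SPRY1 between the combination and EC359.

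Without a minimum fold change, EC359 raised 8 of the 10 genes at an adjusted p under 0.05 (30.8% of all genes tested), trametinib lowered 9 (15.2%) and the combination lowered 9 (34.7%), by edgeR's quasi-likelihood F test after Benjamini-Hochberg correction. The libraries did not overlap with control for 8 genes with EC359 (64.7% of all genes, in either direction), 10 with trametinib (40.1%) and 9 with the combination (71.8%). The median log2 fold change of the 10 genes was 1.25 with EC359, -2.27 under trametinib and -0.84 with the combination, against -0.01, 0.00 and -0.01 over all genes tested. With scaling to library totals only, the median of all genes moved to -0.15 with EC359, 0.03 under trametinib and -0.14 with the combination. Under that scaling SPRED1 and DUSP7 passed as lower with EC359, at -0.15 and -0.19, so the call on both genes with EC359 depends on the scaling.

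SPRY2, SPRY4, DUSP4, DUSP5 and DUSP6 rose at least 2-fold with EC359 and fell at least 2-fold with trametinib. In the combination they were at least 2-fold above trametinib and at least 2-fold below EC359, with an adjusted p under 0.05 throughout. The limits on the single agents were met by 29 of the 14865 genes tested, or 0.195%. All of these limits together were met by 20 genes, or 0.135%. The other 15 genes, named after their values were seen, were AMIGO2, ANGPTL4, CCL20, CXCL1, CXCL8, EGR1, ESM1, FOS, G0S2, IER3, LAMB3, MIR4260, PLK3, SLCO4A1 and STX1A.

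Whether trametinib still lowered the genes in the presence of EC359 was asked by comparing the combination with EC359 alone. By edgeR's quasi-likelihood F test after Benjamini-Hochberg correction, 8 of the 10 genes were lower by at least 2-fold, while 1.55% of all genes were, and the median log2 fold change of the 10 was -1.66. After SPRY4, the largest decreases were in DUSP6 at -3.27 (standard error 0.16), DUSP4 at -2.93 (0.18) and DUSP5 at -1.77 (0.034). SPRED3 gave -1.73 (0.11), SPRY2 -1.60 (0.058), SPRED2 -1.27 (0.048) and SPRED1 -1.07 (0.052). DUSP7 passed the adjusted p at -0.60 (0.043), and SPRY1 did not at -0.75 (0.36, adjusted p = 0.073 by the same edgeR test). Without combination library 3, which held 23 SPRY1 reads against 12 and 9 in the others, SPRY1 gave -1.22 and passed.

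The converse question, whether EC359 raised the genes in the presence of trametinib, was asked by comparing the combination with trametinib alone. Of the 10 genes 7 were higher by at least 2-fold by edgeR's quasi-likelihood F test after Benjamini-Hochberg correction, against 6.12% of all genes. The median log2 fold change of all 10 was 1.79. DUSP6 rose most, by a log2 fold change of 4.03 (standard error 0.53), which on summed counts was 17.2-fold with a 95% counting interval of 8.45 to 40.7. SPRY4 at 2.59 (0.34), DUSP5 at 2.35 (0.054), DUSP4 at 2.24 (0.32), SPRED3 at 1.81 (0.16), SPRY2 at 1.77 (0.081) and SPRY1 at 1.45 (0.47) also passed. Without trametinib library 2 the values of DUSP6 and DUSP4 were 4.89 and 2.92. Without combination library 3, SPRY1 fell to 0.996 and no longer passed (adjusted p = 0.084, edgeR's quasi-likelihood F test after Benjamini-Hochberg correction). SPRED2 at 0.53 (0.055) and SPRED1 at 0.22 (0.056) passed the adjusted p only, and with scaling to library totals SPRED1 gave 0.06 and did not pass. DUSP7 was at 0.01 (0.045, 95% interval -0.08 to 0.10), and at -0.15 with scaling to library totals, where it passed as lower.

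**Figure D3:**
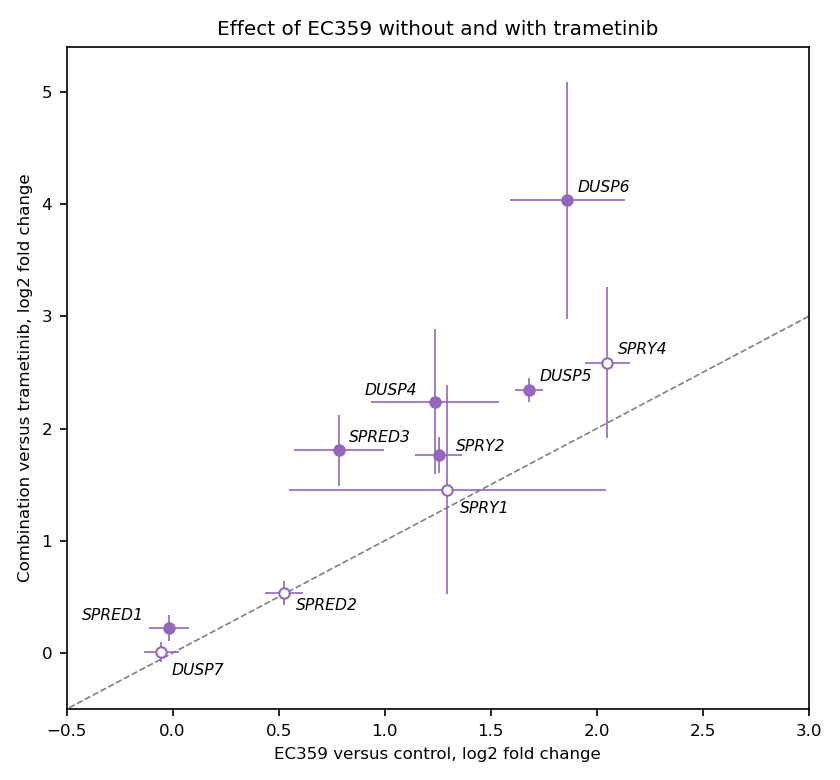
Log2 fold change of each gene with EC359, without trametinib (horizontal axis, EC359 versus control) and with it (vertical axis, combination versus trametinib), with 95% intervals. Filled points are genes whose 2 values differed at an adjusted p under 0.05, the dashed line marks equal values, and DUSP6 lies farthest above it, at 4.03 against 1.86.

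The effect of EC359 without trametinib and with it was then compared by an interaction term, the amount by which the combination exceeds the sum of the single-agent log2 effects. It was above 0 in 6 of the 10 genes at an adjusted p under 0.05 by edgeR's quasi-likelihood F test after Benjamini-Hochberg correction, against 14.4% of all genes, and below 0 in none, against 15.9%. A minimum of 2-fold left 3 genes, DUSP6, SPRED3 and DUSP4, against 0.881% of all genes, with the last 2 of them at the limit. The value was 2.17 (standard error 0.54) for DUSP6, 1.02 (0.19) for SPRED3, 1.0 (0.35) for DUSP4, 0.66 (0.063) for DUSP5, 0.51 (0.098) for SPRY2 and 0.24 (0.073) for SPRED1. In the other 4 it did not pass, at 0.54 (95% interval -0.14 to 1.22) for SPRY4, 0.16 (-1.04 to 1.35) for SPRY1, 0.06 (-0.06 to 0.18) for DUSP7 and 0.01 (-0.13 to 0.15) for SPRED2. The DUSP4 value rested on few trametinib reads. It was 0.76 without trametinib library 1 (adjusted p = 0.079) and 0.72 without trametinib library 3 (adjusted p = 0.09), both by edgeR's quasi-likelihood F test after Benjamini-Hochberg correction, and 1.68 without trametinib library 2. DUSP4 was also under 2-fold without control library 3, EC359 library 2, or combination library 1 or 2, and SPRED3 without control library 2, EC359 library 1, trametinib library 2 or combination library 1. Without combination library 1 only DUSP6 was left, with DUSP4 at 0.96 and SPRED3 at 0.95. For DUSP6 the value ran from 1.74 to 3.03 with 1 library left out, the highest without trametinib library 2, and it stayed above 2-fold.

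Over the 12 libraries, which fall into 4 conditions and share their treatments, the log2 CPM of the genes moved together to different degrees. Pearson's r was 0.996 between SPRY4 and SPRED2, 0.995 between SPRY2 and DUSP5, 0.990 between DUSP4 and DUSP6 and 0.984 between SPRED1 and DUSP7. The pair least alike was SPRY1 and DUSP7, at 0.463, but SPRY1 had few reads in every library, which limits how well its r is known. Among genes outside the 10 with at least 10 CPM on average, those most like SPRY4 were PHLDA1, INHBA, HMGA1, IL4R and PDE4D, with r from 0.994 to 0.997. Those most like DUSP6 were TBC1D4, FHL1, KIFC3, CLDN1 and TTC7A, with r from 0.982 to 0.990. Likeness in shape did not mean likeness in size, since TBC1D4 had log2 fold changes of 0.17 with EC359 and -0.36 with trametinib, and PHLDA1 of 0.78 and -3.0.

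**Figure D4:**
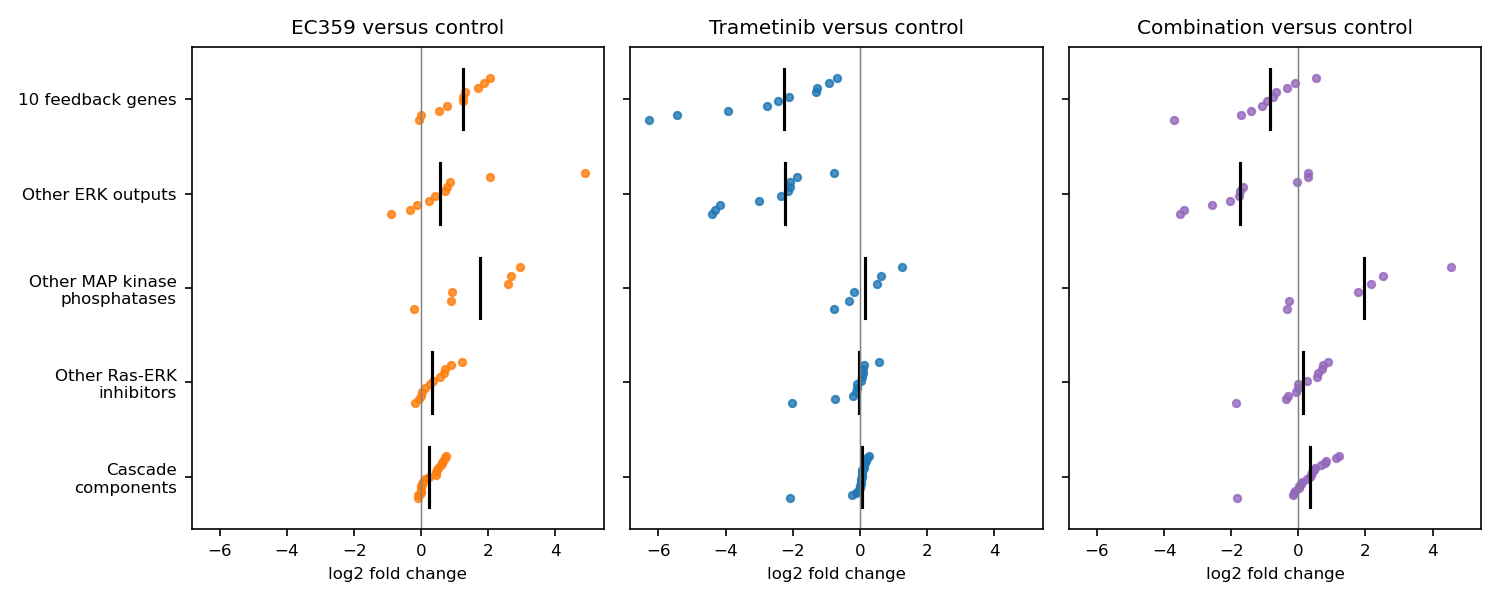
Log2 fold change compared to control of the 10 feedback genes and of the genes in 4 further lists of the pathway, with 1 point per gene and a black line at the median of each list. With trametinib the medians of the feedback genes and of the other ERK outputs lie at -2.27 and -2.24, while those of the other lists lie between -0.02 and 0.17.

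The other genes of the pathway were read from 4 lists, all of whose genes were tested. Of 10 further transcriptional outputs of ERK, trametinib lowered 9 at least 2-fold (0.955% of all genes) and raised none, with a median log2 fold change of -2.24 (0.00 over all genes). The decrease was largest for the transcription factor gene EGR1, at -4.40, and smallest for the receptor gene EPHA4, at -0.77, which passed the adjusted p only. EC359 raised 2 of these 10, EGR1 at 4.90 and IER3 at 2.05 (4.19% of all genes), and the combination lowered 7 (5.87%), with ETV5 at -3.53. IER3 averaged only 0.57 CPM, so the size of its change is known less well. Without the 2-fold limit, EC359 raised 7 of the 10 and lowered 2 at an adjusted p under 0.05, with a lowest value of -0.90. Of all 14865 genes, 4576 were raised and 4501 lowered by this limit. The median of these outputs was 0.56 with EC359 and -1.74 with the combination.

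Another 6 MAP kinase phosphatases, which differ in their preference for ERK, JNK and p38, made up the second list. Trametinib changed none of them by 2-fold at an adjusted p under 0.05, with values from -0.76 for DUSP2 to 1.25 for DUSP8. EC359 raised 3 of the 6 (4.19% of all genes), DUSP1, DUSP8 and DUSP10, at 2.68, 2.93 and 2.58. The combination raised 4 (7.27% of all genes), with DUSP1 at 2.17, DUSP10 at 2.52, DUSP16 at 1.77 and DUSP8 at 4.54. DUSP8 had only 9 reads in the 3 control libraries together and 21 with trametinib, so the size of its changes is known less well. DUSP1 was at 197 CPM in control and 1265 with EC359, against 157 under trametinib and 888 in the combination.

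Of 12 other inhibitors of Ras-ERK signaling, EC359 raised 1, ERRFI1, the gene of an EGFR inhibitor, at 1.20, and trametinib lowered 1, RASA3, the gene of a Ras GTPase-activating protein, at -2.01. With 4.19% of all genes raised by EC359 and 0.955% lowered by trametinib, 1 gene of 12 is too few to set this list apart. Their medians were 0.31 with EC359, -0.02 under trametinib and 0.13 with the combination. SPRY3, the remaining Sprouty gene, was at 0.869 CPM in control and gave 0.56 with trametinib, the highest value of that list. None of 19 cascade components, among them those of SOS, RAS, RAF and MEK, passed both limits with either single agent, and 2 rose with the combination, FRS2 at 1.23 and SOS2 at 1.13, a share near the 7.27% of all genes that rose. Their medians were 0.25 with EC359, 0.05 under trametinib and 0.34 with the combination. The lowest value with trametinib was that of HRAS, at -2.08 with a standard error of 1.47, which did not pass, and its control libraries ran from 0.642 to 8.11 CPM. MAP2K1, the gene of MEK1, had a log2 fold change of -0.06 with trametinib.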

How the data were processed

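RNA from OVCAR8 cells in 4 conditions was sequenced in 3 libraries each. The deposited values are expected counts, not normalized by the authors. Per the file headers, they came from featureCounts 1.5.0-p1, run on read pairs as reverse-stranded, with reads of mapping quality under 2 left out. Exons were summed by gene over an hg38 annotation, and the authors split a read with several placements or overlapping genes into fractions. The submitters' processing notes also name bcl2fastq and HISAT2.

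Rounded values were analysed in R 4.3.3 with edgeR 4.0.16. Of 26485 genes, 6365 had a count of 0 throughout, and filterByExpr (minimum count 10, minimum total 15) left 14865. TMM factors ran from 0.947 to 1.06. A robust quasi-likelihood model was fitted to all 12 libraries, with Benjamini-Hochberg adjustment over all genes tested. Genes were called at an adjusted p under 0.05 and a change of at least 2-fold, following the fold limit the study uses, except for the interaction, which had no fold limit. Standard errors and 95% intervals are Wald values from the fitted means and dispersions and not, as first planned, the fold change divided by the root of F, which was too small in groups with few reads. The biological coefficient of variation was 3.95%. An upper limit for a count of 0 is 3 counts, or 0.0883 to 0.127 CPM. Intervals on summed counts and such limits cover counting error only.

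The 10 genes and the pathway lists were chosen with earlier results of these data known. Text named all 10 genes, extremes of each list in some of the comparisons, and the 5 genes most like DUSP6 and SPRY4. MAP2K1, SOS2, IER3, DUSP1, DUSP10, DUSP16 and the other genes of the pattern over both single agents were named in addition, after their values were seen. Gene coordinates come from the annotation of the authors (hg38). Promoter windows came from RefSeq.

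Alternatives were library totals only, DESeq2 1.42.0, DESeq2 size factors in edgeR, no filter, a filter asking for 10 counts in all libraries, a fit to the compared groups alone, a replicate block, leaving out single libraries, no fold limit, glmTreat against 1.5-fold, and a 2-fold limit on the interaction. Both kinds of test were tested on simulated counts for 14865 genes, 200 of them changed by 1.5 on the log2 scale. The comparison of trametinib with control recovered 200 with 0 false calls, and the interaction recovered 200 with 13 false calls. The changed genes were drawn only from genes above a minimum mean CPM. Recovery at counts as low as those of SPRY1, or of SPRY4, DUSP4 and DUSP6 with trametinib, was therefore not tested.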

Additional observations from a re-analysis of the deposited data

Results flagged for a closer look

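For 6 of the 10 genes the effect of EC359 differed between cells without and with trametinib, by the interaction term in edgeR's quasi-likelihood F test after Benjamini-Hochberg correction. The difference, in log2 units and positive where EC359 raised the gene more in the presence of trametinib, was 0.51 for SPRY2, 0.24 for SPRED1, 1.02 for SPRED3, 1.0 for DUSP4, 0.66 for DUSP5 and 2.17 for DUSP6. Of all genes tested, 14.4% had such a difference above 0. With 1 library left out at a time, the value ran from 1.74 to 3.03 for DUSP6, from 0.89 to 1.19 for SPRED3 and from 0.72 to 1.68 for DUSP4, which did not pass without trametinib library 1 or 3. The trametinib libraries held 25 DUSP4 reads and 8 DUSP6 reads in all, and 118 SPRED3 reads.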

How the results depend on the processing

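The counts of genes per comparison stayed within 1.5 times under DESeq2, its size factors, library totals, no filter, only the groups compared and glmTreat. Asking for 10 counts in all libraries removed members with few trametinib reads, leaving 2 higher with EC359, 5 lower with trametinib, 1 lower with the combination, 5 lower in the combination than with EC359 and 3 higher in it than with trametinib. Without a fold limit, 9 were lower with the combination, and with one, 3 interactions passed. Leaving out 1 library at a time gave 6 to 6 genes higher with EC359, 8 to 8 lower with trametinib, 4 to 5 lower with the combination, 8 to 9 lower and 6 to 7 higher in the combination than with EC359 and trametinib, and 5 to 6 interactions. Of single values, DUSP7 in the combination against trametinib turned to -0.15 with library totals and -0.0027 with only the groups compared, and the SPRED2 interaction to -0.020 with library totals. Leaving out libraries, signs turned in values that did not pass: the SPRED2 interaction ran from -0.042 to 0.065, the SPRY1 interaction from -0.30 to 0.43, SPRED1 with EC359 from -0.037 to 0.022, and DUSP7 against trametinib from -0.0039 to 0.033.

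No pairing by replicate number was seen: deviations of same-numbered libraries correlated at -0.067 to 0.030, and none of 18 pairs exceeded 0.1. Libraries of different number correlated at -0.084 to 0.096, so they did not exceed 0.1 either. Of 36 best matches, 3 were to the same number, and the number to be met without pairing is not given. This check cannot tell whether same-numbered libraries shared a culture or a batch, which the labels do not give. With the replicate block the counts were 6 higher with EC359, 8 lower with trametinib, 4 lower with the combination, 8, 7 and 6 in the other comparisons and the interaction, as without it. Libraries with under 10 reads of a gene, as for SPRY4 and DUSP6 with trametinib, limit how well a fold change is known.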
